A study of Mus with 6 samples.

Results

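The nuclear genome encodes most subunits of respiratory complexes III, IV and V, and 46 such genes, with cytochrome c and a few related proteins, are described here out of 54532 rows of a table of gene levels. They were chosen by symbol alone, as protein-coding rows: every symbol beginning with Uqcr, Atp5 or Cox followed by a digit between 4 and 8, plus Cyc1 and Cycs. RNA-seq libraries came from brain of mice labelled male, and the tissue was labelled as basolateral amygdala, a region known for its role in fear. There were 3 libraries of mice of the genotype CNTNAP4-KO (KO) and 3 of wild-type mice (WT). Cntnap4 encodes a membrane protein of neurons related to the neurexins. Age, strain, allele, the deleted stretch of the gene and the number of animals behind each library were not given in the sources used here. The libraries held 17647556 to 20813211 reads in genes.

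Complexes III, IV and V are the later part of oxidative phosphorylation in the inner mitochondrial membrane. Complex III passes electrons from ubiquinol to cytochrome c, complex IV passes them from cytochrome c to oxygen, and complex V, the ATP synthase, uses the resulting proton gradient to make ATP. A few subunits are encoded by mitochondrial DNA, and the nucleus encodes all the others, including many small accessory subunits. Neurons depend strongly on this pathway for the energy of synaptic transmission. Several accessory subunits of complex IV exist as paired isoforms, a widely expressed one and one best known from heart and skeletal muscle, lung or testis.

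Several libraries stood apart. In the library labelled KO replicate 1, Xist, the RNA that coats a silenced X chromosome, reached 43.0 FPKM (fragments scaled by gene length and library depth), and no other library exceeded 0.0346 FPKM. Its 4 Y-linked genes had 0 reads, where the remaining libraries had 2831 to 4001, which goes against its label as male. WT replicate 3 had 3.42% of its reads on the mitochondrial chromosome, against 5.63% to 8.14% in the other 5 libraries. Of 8135 genes averaging 5 FPKM or more, 30 lay more than 0.8 on the log2 scale below all other libraries in WT replicate 3, and 3 of these were members. KO replicate 2 had 27 such genes, none a member, and the other libraries had 1 to 7. Cntnap4 itself measured 1.61, 1.00 and 1.48 FPKM in KO replicates 1 to 3, against 2.03, 3.59 and 4.91 FPKM in WT replicates 1 to 3. Its log2 difference of -1.05 ± 0.28 (SE) missed the threshold (limma adjusted p = 0.220), and an exact permutation test, two-sided, gave p = 0.1, the lowest value open to 3 against 3 samples. Sums of several marker lists also lay apart between the groups, but no tested marker passed the adjusted threshold (lowest limma adjusted p = 0.184). Beside the counts below, 11.8% of all genes tested were higher in every KO library and 10.8% were lower. The summed level of 8 excitatory neuron markers was 613 to 890.1 FPKM in KO and 356 to 418 FPKM in WT, with 7 of 8 higher in every KO library. That of 6 oligodendrocyte markers was 618 to 929.9 FPKM in KO and 1036 to 1383 FPKM in WT, with 5 of 6 lower in every KO library. No marker of either list was at 0. Hypothalamic markers summed to 2.36 to 1065 FPKM in KO, lowest in replicate 2, and to 485 to 952 FPKM in WT, with overlapping groups. The sum of inhibitory neuron markers overlapped too, at 641 to 755 FPKM in KO and 593 to 713 FPKM in WT. So did those of astrocyte markers (254 to 293 and 261 to 274 FPKM) and endothelial markers (45.5 to 54.2 and 44.4 to 67.6 FPKM). Of the 6 inhibitory neuron markers, Vip was higher and Gad2 was lower in every KO library. Medium spiny neuron markers, typical of striatum, summed to 899 to 1185 FPKM in KO and 621 to 822 FPKM in WT, with 4 of 5 higher in every KO library. Microglial markers summed to 57.2 to 63.2 FPKM in KO and 68.8 to 74.8 FPKM in WT, with 2 of 4 lower in every KO library. The 4 markers chosen for basolateral amygdala summed to 38.3 to 63.0 FPKM in KO and 31.2 to 33.2 FPKM in WT, mostly Lmo3. Of these, Rspo2, Lmo3 and Neurod6 were higher and Etv1 was lower in every KO library, and Rspo2 was low in both groups, at 0.718 to 1.09 FPKM in KO and 0.378 to 0.522 FPKM in WT. Slc17a7, the excitatory neuron marker with the largest log2 difference, was at 19.1 to 94.3 FPKM in KO and 5.37 to 6.42 FPKM in WT. Slc17a6, the excitatory marker outside the 7, was at 5.40 to 15.3 FPKM in KO and 13.5 to 17.0 FPKM in WT (log2 -0.59). Ppp1r1b, a medium spiny neuron marker, was at 306 to 462 FPKM in KO and 214 to 275 FPKM in WT. Avp, a hypothalamic marker, ran from 2.20 to 894 FPKM in KO and from 350 to 783 FPKM in WT. Whether every library held the labelled region alone was not tested. The part of these differences in the member values was not tested, and in bulk tissue fewer cells of a type and less RNA per cell cannot be told apart.

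Some members are among the most abundant transcripts of this tissue, and others ranked far lower by mean level, down to 11652 for Cox6b2 among those tested. Of the 46, 42 averaged 0.5 FPKM or more and were tested, all but Cox4i2, Cox6b2 and Cox7a1 of them at 5 FPKM or more. Cox8a, the smallest subunit of complex IV, was the highest, at 751, 686 and 782 FPKM in KO replicates 1 to 3 and 639, 691 and 464 FPKM in WT replicates 1 to 3. It ranked 20 of all genes by mean level, and Cox6a1, an accessory subunit of the same complex, ranked 24. Cox4i1, the F1 subunits alpha (Atp5a1) and beta (Atp5b) and Cox6b1 followed, at ranks 56, 60, 67 and 98. The 4 members not tested were Cox7b2 with 10 reads over the KO libraries and 8 over the WT libraries, Cox8b with 5 and 6, and Cox8c and a separate short Atp5o model (ENSMUSG00000116933) with 0 reads in every library. A count of 0 allows up to 0.301 to 0.370 FPKM for Cox8c and 0.260 to 0.319 FPKM for the Atp5o model, as 3 reads per library, for counting error only.

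**Figure D1:**
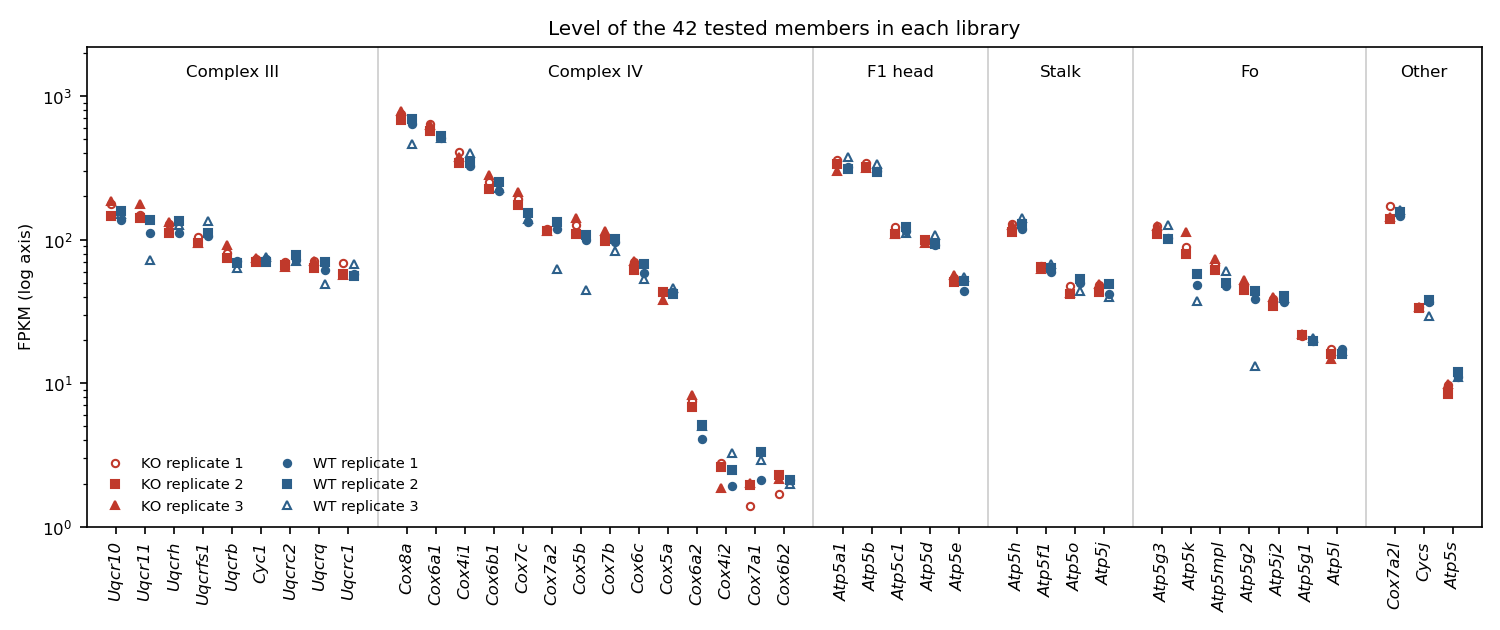
FPKM on a log axis of the 42 tested members, grouped by complex or by part of complex V and sorted by mean level, with 3 KO libraries (red) left of 3 WT libraries (blue). Open symbols are KO replicate 1 and WT replicate 3. Levels span from Cox6b2, at 1.68 to 2.29 FPKM in KO and 1.99 to 2.11 FPKM in WT, up to Cox8a, and WT replicate 3 lies far below the rest for Atp5g2, Cox5b and Cox7a2.

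No member passed the adjusted threshold between KO and WT. The count was 0 of 42 in limma (lowest adjusted p = 0.187) and 0 with voom on reads recovered from the FPKM values, beside 0.0124% of the 16155 genes tested. At an unadjusted p under 0.05 stood 9 members (21.4%, background 15.2%). Of these, 7 members were higher in KO (16.7%, background 8.36%) and 2 were lower (4.76%, background 6.85%). The KO and WT values did not overlap for 14 members (33.3%, background 22.6%), for 10 members that were higher in KO (23.8%, background 11.8%) and 4 that were lower (9.52%, background 10.8%). The 7 were Cox6a2, Atp5k, Cox7c, Atp5mpl, Uqcrb, Cox6a1 and Uqcr11, and the 2 were Atp5s and Cox7a1. The median log2 difference over the tested members was 0.08, with 25 positive and 17 negative, beside 0.01 over all genes tested. With WT replicate 1 left out the members had a median of 0.020. With all libraries set to the same FPKM sum it was 0.019, where that of all genes was -0.044. The 7 higher and 2 lower became 5 and 1 without KO replicate 1, 6 and 2 without WT replicate 3, and 4 and 2 without both. They were 3 and 2 without KO replicate 3 and 9 and 0 without WT replicate 2. Scaling moved them too, to 4 and 5 after quantile normalization, which gave a member median of -0.016, and to 4 and 2 after rescaling to an equal FPKM sum.

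**Figure D2:**
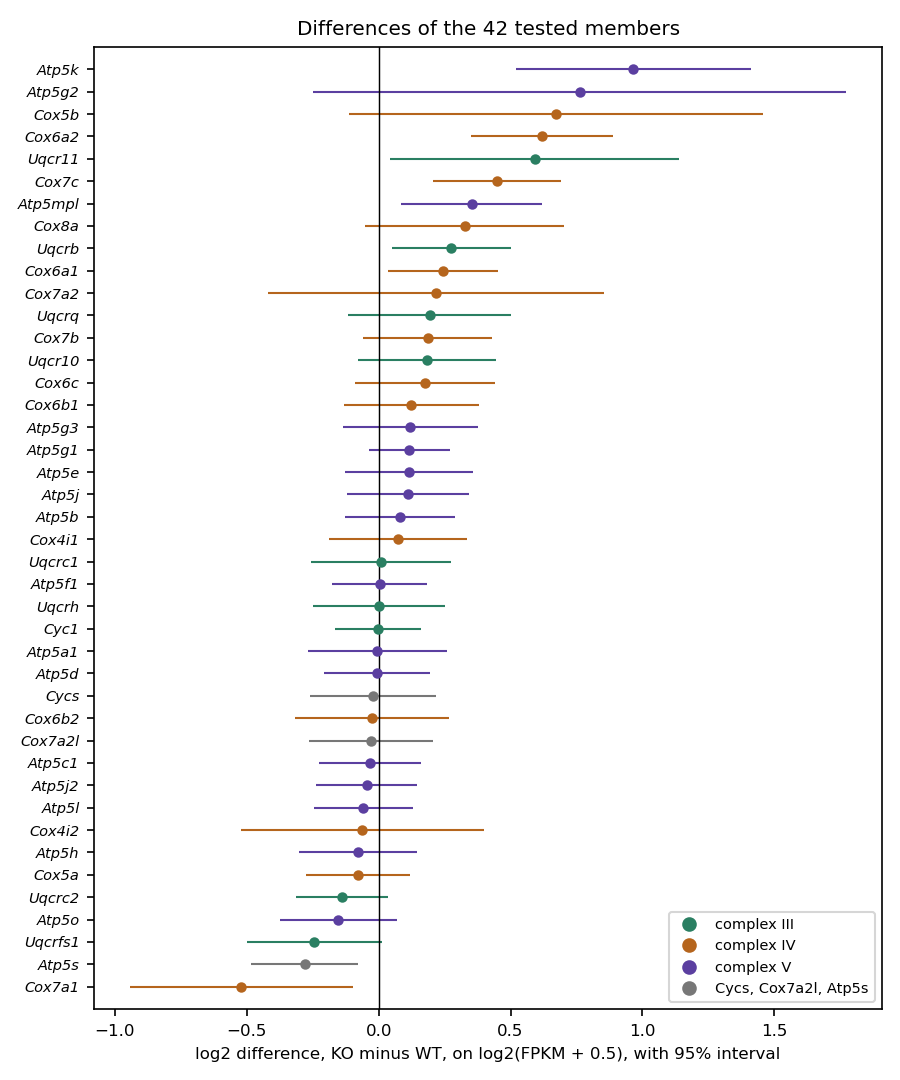
Log2 difference, KO minus WT, of each of the 42 tested members with its unadjusted 95% interval, coloured by complex. Atp5k (0.97) is at the top and Cox7a1 (-0.52) at the bottom. The intervals of Atp5g2 and Cox5b, with the next largest positive differences, include 0.

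Within complex III, the core subunits Uqcrfs1 and Uqcrc2 were lower in every KO library and the small accessory subunits Uqcrb and Uqcr11 were higher in every KO library, none past the adjusted threshold. Cyc1, cytochrome c1, which hands electrons to cytochrome c, measured 73.0, 70.3 and 74.1 FPKM in KO replicates 1 to 3 and 72.8, 69.9 and 75.2 FPKM in WT replicates 1 to 3. Those values overlap fully, and the log2 difference of -0.00 had a 95% interval of -0.17 to 0.16. Uqcrc1, a large core subunit, averaged 60.9 ± 6.53 FPKM in KO and 60.5 ± 6.68 FPKM in WT (SD, n = 3 each). Its partner Uqcrc2 measured 69.8, 66.1 and 64.8 FPKM in KO and 72.6, 77.7 and 70.8 FPKM in WT, so that every KO library was below every WT library, at log2 -0.14 ± 0.07 (limma adjusted p = 0.421). Uqcrfs1, the Rieske iron-sulfur protein that accepts electrons from ubiquinol, measured 104.9, 95.1 and 94.9 FPKM in KO and 105.4, 111 and 134 FPKM in WT. Its groups did not overlap, by the narrowest margin between KO replicate 1 and WT replicate 1, and the log2 difference was -0.24 ± 0.11 (limma adjusted p = 0.345), or -0.14 without WT replicate 3.

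Uqcrb, a small accessory subunit near the ubiquinone site, measured 80.1, 75.0 and 91.7 FPKM in KO and 70.5, 68.9 and 63.9 FPKM in WT. All 3 KO libraries were above all WT libraries, at log2 0.27 ± 0.10 (limma adjusted p = 0.271). Uqcr11, a small accessory subunit of complex III, measured 149, 141 and 177 FPKM in KO and 110.5, 136 and 71.7 FPKM in WT. WT replicate 3 was by far the lowest library, and the log2 difference of 0.59 ± 0.23 (limma adjusted p = 0.301) was 0.34 without it. Uqcr10 averaged 169 ± 20.2 FPKM in KO and 149 ± 10.4 FPKM in WT, and Uqcrq averaged 68.5 ± 4.31 FPKM in KO and 60.4 ± 10.2 FPKM in WT, both with overlapping groups. Uqcrh, the acidic hinge protein at the cytochrome c1 side, had a log2 difference of 0.00 with a 95% interval of -0.25 to 0.25. Cycs, the mobile carrier cytochrome c itself, averaged 33.9 ± 0.382 FPKM in KO and 34.7 ± 4.41 FPKM in WT, and its log2 difference of -0.02 had an interval of -0.26 to 0.22.

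Complex IV held the member with the smallest p, Cox6a2 (chromosome 7, 128205435 to 128206387, minus strand, GRCm38). Cox6a2 is the isoform of subunit 6A known from heart and skeletal muscle, and in mouse brain it has been described in parvalbumin interneurons. Its levels were 7.51, 6.82 and 8.30 FPKM in KO replicates 1 to 3 and 4.07, 5.15 and 5.01 FPKM in WT replicates 1 to 3. Every KO library was above every WT library, and the log2 difference was 0.62 ± 0.11 (limma adjusted p = 0.187), between 0.52 and 0.69 when any 1 library was left out. These values rest on 96, 84 and 100 reads in KO and 51, 63 and 74 reads in WT. Pvalb, which marks parvalbumin interneurons, measured 41.8, 32.9 and 56.9 FPKM in KO and 47.2, 58.0 and 60.2 FPKM in WT. Its groups overlapped, at log2 -0.35 (limma adjusted p = 0.446). Muscle transcripts were low in both groups, with Ckm at 0.0379 to 0.0730 FPKM in KO and 0.0191 to 0.0372 FPKM in WT. Acta1, an actin gene of skeletal muscle, was at 3.36 to 3.74 FPKM in KO and 2.29 to 2.68 FPKM in WT. Myh6, a heart myosin, went the other way, at 0.526 to 0.713 FPKM in KO and 0.733 to 1.33 FPKM in WT. The sum of the 5 muscle markers, most of it Acta1, was 4.32 to 4.88 FPKM in KO and 3.35 to 4.25 FPKM in WT. The part of parvalbumin interneurons or of muscle transcripts in the Cox6a2 values was not tested.

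Cox7c, a small accessory subunit of complex IV (chromosome 13, 86044816 to 86046904, minus strand), measured 192, 175 and 215 FPKM in KO and 134, 152 and 139 FPKM in WT. The groups were separated, at log2 0.45 ± 0.10 (limma adjusted p = 0.201). Cox6a1, the widely expressed partner of Cox6a2, measured 639, 568 and 629 FPKM in KO and 507, 528 and 514 FPKM in WT, at log2 0.24 ± 0.09 (limma adjusted p = 0.285). Cox8a had a log2 difference of 0.33 ± 0.16 with overlapping groups, and 0.15 without WT replicate 3.

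Cox5b and Cox7a2 show how far a single library set some values. Cox5b, a zinc-binding subunit on the matrix side, measured 127, 109 and 142 FPKM in KO and 99.9, 108 and 44.6 FPKM in WT. The KO libraries were above all WT libraries, yet KO replicate 2 and WT replicate 2 nearly touched, and WT replicate 3 lay far below all others. The log2 difference of 0.67 ± 0.33 (limma adjusted p = 0.385) was 0.27 without WT replicate 3. Cox7a2, the widely expressed isoform of subunit 7A, measured 118, 114 and 116 FPKM in KO and 119, 132 and 62.5 FPKM in WT. Its log2 difference was 0.22 with all libraries and -0.12 without WT replicate 3, so its direction rests on that library.

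Other isoforms known from other tissues were low as well. Cox7a1, the heart and skeletal muscle isoform of subunit 7A, measured 1.39, 1.96 and 2.00 FPKM in KO and 2.13, 3.33 and 2.92 FPKM in WT. All KO values lay below all WT values, at log2 -0.52 ± 0.18 (limma adjusted p = 0.270), on 14, 19 and 19 reads in KO and 21, 32 and 34 reads in WT. Cox4i2, the isoform of subunit 4 known from lung, averaged 2.41 ± 0.480 FPKM in KO and 2.56 ± 0.676 FPKM in WT, and its log2 difference of -0.06 had an interval of -0.52 to 0.40. Cox6b2, the testis isoform of subunit 6B, averaged 2.04 ± 0.319 FPKM in KO and 2.07 ± 0.0651 FPKM in WT. The remaining tested subunits of complex IV, Cox4i1, Cox5a, Cox6b1, Cox6c and Cox7b, had log2 differences between -0.08 and 0.19 with overlapping groups.

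Isoforms were also compared as ratios within a library. Over 7 ratios on the log2(FPKM + 0.5) scale, where the added 0.5 pulls in the ratios of low isoforms, 2 separated the groups. Cox6a2 over Cox6a1 averaged -6.25 ± 0.08 in KO and -6.63 ± 0.15 in WT, and Cox6a2 made up 1.16%, 1.19% and 1.30% of the FPKM of the pair in KO and 0.795%, 0.967% and 0.965% in WT. Cox7a1 over Cox7a2 averaged -5.68 ± 0.25 in KO and -4.94 ± 0.67 in WT, with WT replicate 3, where Cox7a2 was low, the highest at -4.20. The difference of -0.74 was -0.37 without that library, and the groups were separated only narrowly, by -5.534 in KO replicate 3 against -5.512 in WT replicate 1. In the exact permutation test, two-sided, both had p = 0.1, the lowest possible here, and 0.35 after Benjamini-Hochberg adjustment over the 7 ratios. The other 5 ratios, for Cox4i2, Cox6b2, Cox8b, Atp5g1 and Atp5g2 with their partners, overlapped between the groups.

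Complex V is built from a catalytic F1 head, a membrane part Fo with the rotating ring of c subunits, and a stalk that holds them together. The 5 head subunits had log2 differences from -0.03 to 0.11, and none was separated between the groups. Atp5b, the catalytic beta subunit, measured 343, 323 and 315 FPKM in KO and 299.9, 295 and 335 FPKM in WT, which overlap. Atp5a1, the alpha subunit, averaged 333 ± 28.3 FPKM in KO and 334 ± 36.0 FPKM in WT, and its log2 difference of -0.01 had a 95% interval of -0.27 to 0.26. Atp5c1 (gamma) and Atp5d (delta), parts of the central rotor shaft, had log2 differences of -0.03 and -0.01, and Atp5e (epsilon) one of 0.11. Among the peripheral stalk subunits, Atp5f1 (subunit b), Atp5h (d), Atp5j (F6) and Atp5o (OSCP) had log2 differences of 0.00, -0.08, 0.11 and -0.15.

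The Fo part held the member with the largest positive difference, Atp5k (chromosome 5, 108433244 to 108434448, minus strand), which encodes subunit e. Subunit e takes part in the pairing of ATP synthases into dimers at the cristae. Atp5k measured 88.8, 79.0 and 112 FPKM in KO and 48.6, 57.7 and 37.2 FPKM in WT, with every KO library well above every WT library. The log2 difference was 0.97 ± 0.19 (limma adjusted p = 0.187), 0.80 without WT replicate 3 and 0.99 without KO replicate 1. Its dimerisation partner subunit g, Atp5l, measured 17.3, 16.0 and 14.8 FPKM in KO and 17.3, 16.0 and 16.7 FPKM in WT, which overlap, at log2 -0.06 with an interval of -0.25 to 0.13. Atp5mpl, a small proteolipid of Fo, measured 66.3, 61.7 and 73.0 FPKM in KO and 47.7, 49.6 and 60.4 FPKM in WT. KO replicate 2 lay just above WT replicate 3, and the log2 difference was 0.35 ± 0.11 (limma adjusted p = 0.252). Atp5j2, subunit f, had a log2 difference of -0.05 with overlapping groups.

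The c ring is encoded by 3 genes whose mature proteins are the same and whose import sequences differ. Atp5g3 supplied most of the FPKM, with 64.0%, 62.5% and 62.3% of the 3 genes in KO and 63.7%, 61.5% and 78.8% in WT. Atp5g2 supplied 25.1%, 25.2% and 26.5% in KO and 24.1%, 26.7% and 8.25% in WT. WT replicate 3 was therefore the library apart, with Atp5g2 at 13.2 FPKM against 38.9 and 44.2 FPKM in the other WT libraries and 48.7, 44.5 and 52.8 FPKM in KO. The log2 difference of Atp5g2, 0.76 ± 0.42 (limma adjusted p = 0.438), was 0.22 without that library. Atp5g1 measured 21.2, 21.8 and 22.2 FPKM in KO and 19.5, 19.6 and 20.8 FPKM in WT, separated groups with a small log2 difference of 0.12 ± 0.07. The summed c subunit level was 194, 177 and 199 FPKM in KO and 161, 166 and 160.5 FPKM in WT, above every WT library in all 3 KO libraries. The shares and the sum depend on the deposited gene lengths, 4912 bases for Atp5g1, 1675 for Atp5g2 and 2181 for Atp5g3. By reads, Atp5g1 was above Atp5g2 in every library, at 1957 against 1534 in KO replicate 1.

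A pair of members picked up by their symbols are not standing subunits of these enzymes. Atp5s, coupling factor B, measured 9.65, 8.34 and 9.83 FPKM in KO and 11.03, 11.97 and 11.06 FPKM in WT. Every KO library was below every WT library, at log2 -0.28 ± 0.09 (limma adjusted p = 0.241), and -0.30 without WT replicate 3. Cox7a2l, which joins complexes III and IV into supercomplexes, averaged 152 ± 17.1 FPKM in KO and 154 ± 6.89 FPKM in WT.

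**Figure D3:**
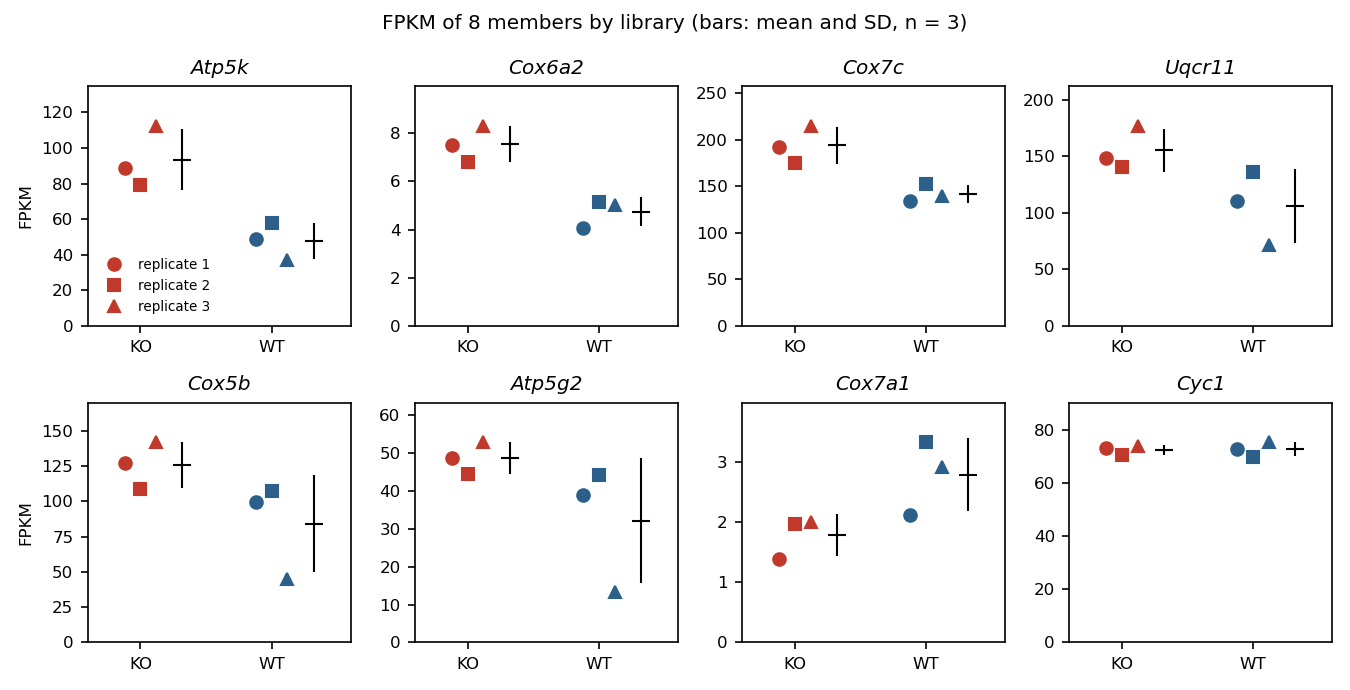
FPKM of 8 members in 3 KO libraries (red, left) and 3 WT libraries (blue, right), with the mean and SD in black beside each group and every axis starting at 0. Atp5k, Cox6a2 and Cox7c are separated between the groups, Uqcr11, Cox5b and Atp5g2 have 1 low WT library, Cox7a1 is lower in KO, and Cyc1 overlaps.

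Short members tended to measure higher in KO. Across the 42 tested members, the log2 difference had a Spearman rho of -0.36 and a Pearson r of -0.32 with log2 gene length, as a description over genes that share the same 6 libraries. The 11 members of at least 500 but under 1000 bases had a median log2 difference of 0.24, with 9 positive and 2 negative. For the 16 members from there to under 2000 bases the median was 0.04, for the 10 up to under 4000 bases -0.01 and for the 5 longer ones 0.01. All 7 members that were higher at an unadjusted p under 0.05 lay in the 2 shorter classes, 5 of them under 1000 bases. They made up 45.5% of members under 1000 bases, beside 13.8% of the protein-coding genes of that class, and 12.5% of members in the next class, near the 9.90% of its protein-coding genes. Over all protein-coding genes tested, the medians of these 4 classes were 0.08 for 305 genes, 0.04, 0.02 and -0.00, with rho -0.11. By complex, rho was -0.53 over 9 members of complex III, -0.03 over 14 of complex IV and -0.33 over 16 of complex V. Differences between these values were not tested. Complex IV includes Cox4i2, Cox6b2 and Cox7a1, the only tested members under 5 FPKM, and its rho without them was not computed.

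Single libraries carried this relation in different degrees. Taking each library against the mean of all 6, rho with length over the members was -0.36, -0.20 and -0.44 for KO replicates 1 to 3 and 0.33, -0.02 and 0.29 for WT replicates 1 to 3. Over all protein-coding genes the same values were -0.31, 0.15 and -0.13 for KO and 0.26, 0.01 and -0.04 for WT. The sign over members and over all genes differed in KO replicate 2 and in WT replicates 2 and 3, with values near 0 for WT replicate 2. For the 9 pairs of a KO and a WT library, rho over the members ran from -0.46 to -0.06. It was -0.34 without WT replicate 3, where the median of the 11 short members was 0.20, and -0.38 without KO replicate 1, where it was 0.21. After a smooth trend of each library on gene length over all genes was removed, the 11 short members had a median of 0.20 and rho was -0.30. The 305 protein-coding genes of the same length class then had a median of 0.042, against 0.083 before, so the removal was partial there. The part of gene length in the member values was not tested. The 2 short members below 0 were Cox7a1 and Cox4i2, both near 2 FPKM, and among members at 5 FPKM or more rho was -0.54. WT replicates 1 and 3 were each the lowest library for 12 members (28.6%), where they were lowest for 12.5% and 17.2% of all genes tested.

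**Figure D4:**
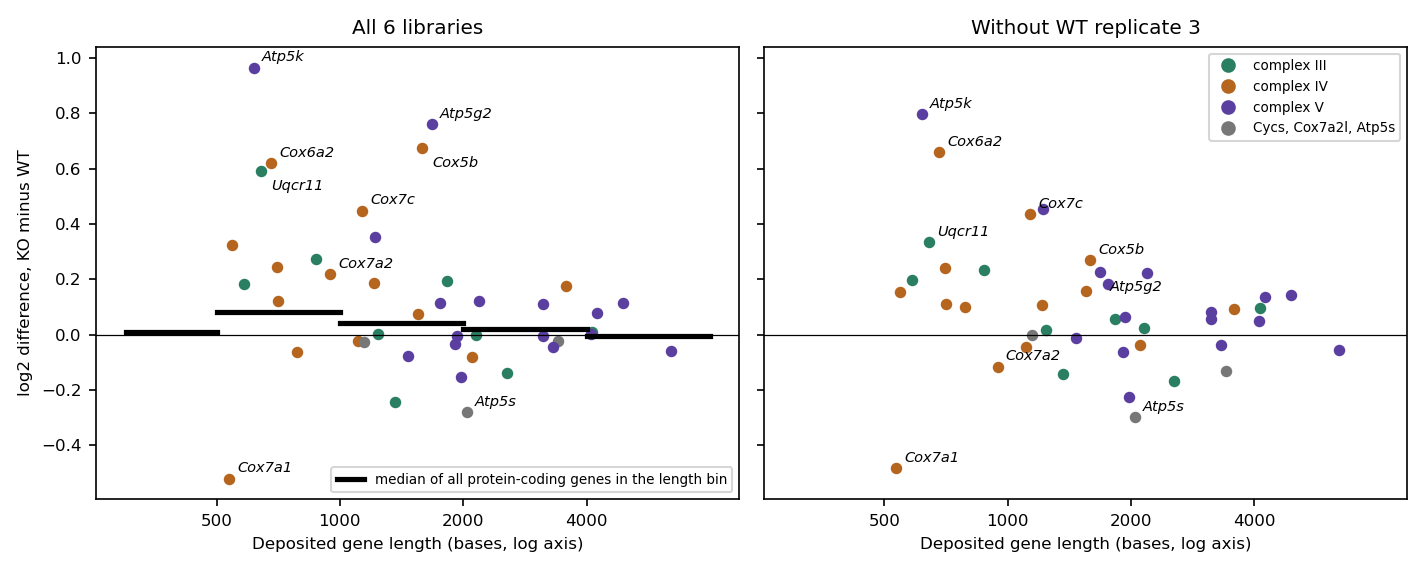
Log2 difference, KO minus WT, against deposited gene length on a log axis for the 42 tested members, coloured by complex, with all 6 libraries (left) and without WT replicate 3 (right). Black bars in the left panel give the median over all protein-coding genes of each length class. Members under 1000 bases spread upward to Atp5k with Cox7a1 as the low exception, and without WT replicate 3 Uqcr11, Cox5b and Atp5g2 move towards 0 while Atp5k is at 0.80, Cox6a2 at 0.66 and Cox7c at 0.44.

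Other families of nuclear genes for mitochondria and translation give the setting. Median gene lengths were 1495 bases for complex I subunits, 2255 for mitochondrial and 1805.5 for cytosolic ribosomal protein genes. That of the members was 1631 bases, and that of all genes tested 3791. The 37 complex I subunits were centred on a log2 difference of 0.17 (median), and at an unadjusted p under 0.05 there were 8 higher (21.6%, background 8.36%) and 1 lower (2.70%, background 6.85%). With log2 gene length, their Spearman rho was -0.25 and their Pearson r -0.40. The 77 tested mitochondrial ribosomal protein genes were centred on 0.05, 2 being higher and 2 lower (2.60% each, under both backgrounds), and rho was -0.12 (Pearson r -0.17). The 96 tested cytosolic ribosomal protein genes were centred on 0.10, 11 being higher (11.5%) and 4 lower (4.17%), and rho was -0.27 (Pearson r -0.18). No gene of these families passed the adjusted threshold in limma, where the lowest adjusted p was 0.187. The differences between these families and the members were not tested.

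Genes that build, partner or regulate these complexes were read from 7 lists with 58 genes, of which 56 were tested. None passed the adjusted threshold in limma, and at an unadjusted p under 0.05 there were 2 higher and 1 lower in KO, beside background shares of 8.36% and 6.85%. Both higher genes are assembly factors. Pet100, needed for complex IV, measured 5.20, 6.67 and 8.55 FPKM in KO and 3.91, 4.04 and 3.70 FPKM in WT, at log2 0.71 ± 0.16 (limma adjusted p = 0.201) with separated groups. Uqcc3, needed for complex III, measured 24.4, 25.9 and 24.6 FPKM in KO and 17.7, 19.7 and 23.5 FPKM in WT, at log2 0.30 ± 0.11 (limma adjusted p = 0.276). Cmc1, a complex IV assembly factor, was the lower one, at 14.5, 12.5 and 13.6 FPKM in KO and 15.5, 15.7 and 15.5 FPKM in WT (log2 -0.20 ± 0.07, limma adjusted p = 0.287).

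The median log2 difference was -0.01 over 21 tested complex IV assembly factors and 0.13 over 6 complex III assembly factors, or 0.081 for these 6 without WT replicate 3. Sco2 and Pet117 of the complex IV list are listed at 0 in every library and were not tested. The 4 subunits of complex II, which feeds electrons in before complex III and has no mitochondrially encoded part, had a median of -0.06, with Sdhc at -0.24 ± 0.14. Without WT replicate 3 the median was -0.021 and Sdhc was at -0.077. The 11 nuclear regulators, among them the coactivator Ppargc1a and the factors Nrf1 and Gabpa, had a median of -0.04. Tfb2m, a mitochondrial transcription factor, had the smallest p among them at log2 0.16 ± 0.08. Usmg5, a small subunit of Fo kept outside the members by its symbol, measured 546, 522 and 534 FPKM in KO and 454, 482 and 519 FPKM in WT, at log2 0.14 ± 0.09. Slc25a5, an exchanger of ADP for ATP, had a log2 difference of 0.17 ± 0.09.

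Of the 6 mitochondrially encoded partners, all but mt-Co3 were lowest in WT replicate 3. Cytochrome b (mt-Cytb) measured 8427, 7860.1 and 8621 FPKM in KO and 8964, 10620.2 and 3383 FPKM in WT. Its log2 difference of 0.28 ± 0.41 was -0.23 without WT replicate 3. The largest log2 difference was that of mt-Atp8, the shortest of these genes at 204 bases. It measured 5.995, 4.87 and 5.81 FPKM in KO and 5.05, 7.09 and 0.451 FPKM in WT. At this length the last value rests on very few reads. The log2 difference was 0.82 ± 0.73, and -0.10 without WT replicate 3. The median over the 6 genes was 0.18 with all libraries and -0.22 without WT replicate 3, when all 6 were negative, and with all libraries each group overlapped the other.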

How the data were processed

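RNA was measured in 3 KO and 3 WT libraries, made per the labels' protocols with an RNeasy kit and a SMARTER library kit. The build was GRCm38 (mm10), per the submitters' processing notes, while aligner, counter, strand setting and annotation release were not given in the sources used here. The authors deposited 1 table of FPKM values with gene length. FPKM times length came in whole multiples of 1 step per library for 100% of values above 0 (within 0.01), which gave the reads. Median-ratio size factors of the deposited FPKM were 1.00 in every library.

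Differences are KO minus WT with standard errors, from limma 3.58.1 in R 4.3.3 with a mean-variance trend and robust moderation, on log2(FPKM + 0.5), over 16155 genes averaging 0.5 FPKM or more (13376 protein-coding). This scale understates the change of low genes. Adjusted p-values are Benjamini-Hochberg over all of them, threshold 0.05. The fit was also run on simulated reads drawn with a common spread and no library apart. Those data say nothing about the libraries here that stood apart. Means are ± SD. The titles number mice within each genotype but do not say whether a library is 1 animal or a pool, so the p-values reflect only how these samples vary. Of the 46 members, 17 overlap another gene, 11 of them a tested one, so their values are uncertain without strand, as are those of genes with processed copies.

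Members, lists and tests were chosen with earlier results of these data known. Named by rule were the 8 members of smallest p in each direction at 1 FPKM or more, the 6 highest, isoform pairs, core subunits, untested members and the smallest p of each list. The others, Cmc1 and mt-Cytb were named after their values were seen. Alternatives were other pseudocounts, filters, scalings, variance settings, weights, a replicate block, voom, protein-coding genes alone, removal of the length trend (loess span 0.5) and leaving out each library. Leaving out KO replicate 1 and WT replicate 3 together was chosen after seeing the data.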

Additional observations from a re-analysis of the deposited data

How the results depend on the processing

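No member passed the adjusted threshold under any of the 20 alternatives, with a lowest limma adjusted p of 0.0883 in voom. Median-ratio scaling, 1 of these, could hardly change a value, as its size factor was the same in every library. The 7 members higher at an unadjusted p under 0.05 became 4 with an equal FPKM sum, with quantile normalization, and with KO replicate 1 and WT replicate 3 both left out (chosen after seeing the data), and 3 to 9 when each library was left out. With the replicate block they became 4. Same-numbered samples did not deviate together (r -0.090, -0.14 and -0.066), but 3 libraries per group are too few to tell whether the numbers pair samples. The 2 lower members became 5 with quantile normalization, 1 with a filter at 5 FPKM, and 0 to 3 when each library was left out. The median of 0.08 was -0.016 with quantile normalization, 0.019 with an equal FPKM sum, 0.032 in voom and 0.020 to 0.10 when each library was left out, lowest without WT replicate 1. The rho with length of -0.36 was -0.54 with a filter at 5 FPKM, which drops Cox4i2, Cox6b2 and Cox7a1. Cntnap4 has no value under that filter. Of 32 named tested members, 12 changed sign under at least 1 alternative. With quantile normalization these were Atp5b (-0.018), Cox4i1 (-0.024), Cox6b1 (-0.0073) and Uqcrc1 (-0.086). Uqcrc1 was also -0.048 with an equal FPKM sum, -0.035 in voom and -0.0027 without the length trend. Array weights gave 0.015 for Atp5d and 0.023 for Cyc1. With both libraries left out, Atp5a1 was 0.023, Atp5d 0.070, Cox4i2 0.010, Cox6b2 0.059, Cox7a2 -0.13 and Cyc1 0.017. Leaving out each library gave Atp5a1 -0.063 to 0.080, Atp5c1 -0.083 to 0.0064, Atp5d -0.045 to 0.065, Cox4i2 -0.22 to 0.10, Cox6b2 -0.098 to 0.081, Cox7a2 -0.12 to 0.42, Cyc1 -0.030 to 0.022, Cycs -0.13 to 0.041 and Uqcrc1 -0.077 to 0.10. It gave the ratio of Cox4i2 over Cox4i1 -0.25 to 0.0090 and Atp5g1 over Atp5g3 -0.079 to 0.042. The cause of these shifts was not tested.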

Other observations

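Of 10 rows of other biotypes whose symbols begin like those of members, 5 were above 0 in at least 1 library. Atp5l2-ps, a pseudogene named for subunit g, had the highest single value, with 0.511, 0.354 and 0.724 FPKM in KO replicates 1 to 3 and 1.04, 1.604 and 1.47 FPKM in WT replicates 1 to 3. All KO libraries were below all WT libraries, on 3, 2 and 4 reads in KO and 6, 9 and 10 reads in WT, at log2 -0.87 ± 0.20 (limma adjusted p = 0.200). It was picked after its values were seen, and reads shared with Atp5l cannot be told apart here.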
